A study of Mustela putorius furo with 2 samples.

Results

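The collagen genes of the ferret cortex were described here across cell classes. They were taken as every gene symbol that starts with COL, a number, A and a number, and that held at least 1 unique molecular identifier (UMI, a tag that counts 1 captured RNA molecule). Of 50 symbols with this pattern 43 held a UMI, out of 21317 gene names with a UMI in the whole table. The 7 without a UMI were COL20A1, COL4A3BP (which is no collagen chain) and 5 antisense names. All 43 have an entry in RefSeq's gene table for the ferret (ASM1176430v1.1). Together they held 16885 of 60743615 UMIs.

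The study measured single-cell RNA on the 10x Genomics platform in papain-dissociated dorsal cortex of the ferret (wild type, postnatal day 3). It has 1 group of 2 replicates and no treatment or second genotype, so every comparison is between classes of cells within the same 2 libraries (n = 2 libraries throughout). The libraries were told apart by a suffix on the cell barcodes. They are called A (9782 cells, 41836475 UMIs, 10141 of them from collagen genes) and B (5005 cells, 18907140 UMIs, 6744 from collagen genes), since the labels do not tie a suffix to a replicate number. P-values measure only how far differences between classes vary between these 2 libraries, pooled over all classes of a fit. The fits had 8 and 11 residual degrees of freedom. The labels also do not say whether the replicates are separate animals, so this spread may be technical. The median cell held 3602.5 UMIs in A and 3068 in B, and 21 barcode sequences occurred in both libraries.

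Collagens are extracellular proteins in which chains wind into a triple helix. Fibrillar chains form the rope-like fibrils of connective tissue, and fibril-associated chains decorate them. Type IV chains form the sheet-like network of basement membranes. The brain holds little fibrillar collagen outside the meninges and the walls of larger vessels, and its basement membranes lie under the pia and around blood vessels, where endothelial cells and the pericytes and smooth muscle cells around them (mural cells) deposit type IV chains.

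Cells were put into 11 classes by marker genes, none of them a collagen, and a cell that passed several of these gates was left out. Endothelial cells (CLDN5 with other vascular markers) numbered 69 in A and 189 in B, and glia (radial glia and immature astrocytes together) 729 and 357. Oligodendrocyte precursors (PDGFRA with SOX10) numbered 54 and 22, inhibitory neurons 1074 and 328, and excitatory neurons 3761 and 1688. In each of these 5 classes the list of further markers of that class, which its own gate did not use, led over the lists of the other classes, at a mean log2 ratio of 4.58 for endothelial cells (6 of 6 markers higher), 2.16 for glia (5 of 5), 3.69 for oligodendrocyte precursors (5 of 5), 4.01 for inhibitory neurons (4 of 4) and 0.10 for excitatory neurons (3 of 4). Cells gated by EGFR with OLIG1 or OLIG2 (316 and 133, EGFR-gated progenitors below) and by EOMES with NEUROG2 (586 and 256, EOMES-gated cells) had no list of further markers of their own and are called by their gate genes. The fibroblast gate took at least 2 of DCN, FBLN1, OGN, FOXC1, OSR1, TWIST1, TWIST2 and MFAP4. It held 69 and 28 cells in which glia markers led (0.62, 2 of 5 higher) and fibroblast markers did not (-0.55, 0 of 5). They are called OGN and DCN gated cells, after the 2 gate genes that led in them, though a single cell may hold neither.

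Only 21 of 67 cells in A and 6 of 156 in B that passed the mural gate passed it alone. The endothelial gate was also passed by 24 of them in A and 131 in B. Over both libraries 37 also passed the excitatory neuron gate, 27 the fibroblast, 19 the glia and 13 the inhibitory neuron gate, and these overlaps can share cells. Wider vascular groups were therefore formed after the gates had been seen, in which a cell may also pass gates of other classes. These held 43 and 25 cells with mural but not endothelial markers, 106 and 299 with endothelial but not mural markers, and 24 and 131 with both. The wide mural group kept 5 of 5 further mural markers (mean log2 ratio 4.20). However, 4 of 6 endothelial markers (mean log2 ratio 1.21) and 3 of 5 fibroblast markers (1.74) were also higher in it. The group with both marker sets cannot be told apart from a mural and an endothelial cell in 1 droplet, and no doublet caller was run.

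Collagen genes took their highest share of UMIs in vascular cells. Over all 43 genes, the wide mural group stood at 4103 CPM (a gene's UMIs as a share of all UMIs of the summed cells, scaled to a common total) in A and 3101 in B, and endothelial cells at 2146 and 2147. Oligodendrocyte precursors held 624 and 620 CPM and glia 317 and 319. EGFR-gated progenitors held 251 and 231 CPM, EOMES-gated cells 192 and 180, excitatory neurons 165 and 165, inhibitory neurons 112 and 165, and microglia 94.1 and 122. Inhibitory neurons overlapped both excitatory neurons and microglia in range, while excitatory neurons and microglia did not overlap each other. The OGN and DCN gated cells (222 and 354 CPM) overlapped glia, and the ependymal gate, with 1 and 8 cells, held 2 and 8 collagen UMIs and is not ranked. The 628 cells that passed a vascular gate were 4.25% of the cells and 2.97% of the UMIs. They held 90.2% of the UMIs of COL3A1, 77.3% of COL4A1, 66.7% of COL4A2, 66.5% of COL1A1, 66.1% of COL1A2, 61.7% of COL5A3 and 58.4% of COL18A1.

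**Figure D1:**
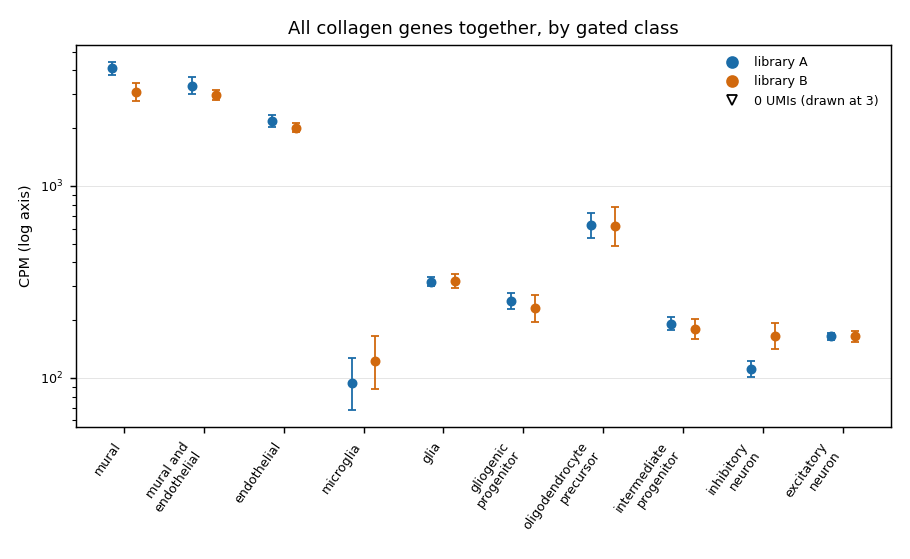
Summed UMIs of all 43 collagen genes as CPM (log axis) in 10 classes, 1 point per library with its exact 95% Poisson interval, which covers counting error only; mural and endothelial are the wide groups, and gliogenic and intermediate progenitor are the EGFR-gated and EOMES-gated cells. The 3 vascular groups sit between 2013 and 4103 CPM, oligodendrocyte precursors at 624 and 620, and the other 6 classes shown at 319 or less.

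The roles that made up these totals differed between classes. Basement membrane network chains summed to 1534 and 1359 CPM in endothelial cells, against 27.1 and 26.9 in excitatory neurons and 28.4 and 35.0 in glia. Fibrillar chains, mostly COL11A1 alone, made up 357 and 298 CPM of the oligodendrocyte precursors' total. Anchoring and fibril-associated chains, mostly COL9A3, made up 146 and 163 CPM of that of glia, beside 114 and 98.2 of fibrillar chains. In neurons, fibrillar chains summed to 70.9 and 64.6 CPM in the excitatory class, mostly COL24A1, and 28.9 and 43.1 in the inhibitory class. Transmembrane chains (COL13A1, COL17A1, COL23A1, COL25A1) stayed at 7.06 CPM or less in all of the classes just named, EOMES-gated cells included.

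Endothelial cells were set against excitatory neurons to ask which collagens mark the vessel wall. The basement membrane pair COL4A1 and COL4A2, the endostatin-bearing COL18A1 and the fibril-regulating COL5A2 were all higher in endothelial cells, by about 28- to 98-fold. COL1A1 and COL1A2, the chains of the main interstitial fibril, were also higher at far lower levels. COL24A1 and COL9A3 were lower. Of 15 members with enough UMIs to be tested 8 were higher and 2 lower (edgeR's quasi-likelihood test, adjusted p under 0.05), while 40.0% of all 12001 genes tested were called, 21.4% higher and 18.6% lower. The median log2 fold change of the 15 was 2.51, beside -0.05 for all genes tested. The count filter passes a gene through any class in which it is high, and for COL1A1 and COL1A2 this includes endothelial cells. The number of higher members and the median are therefore partly set by the filter.

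COL4A1, one of the chains of the ubiquitous type IV heterotrimer, stood at 1026 CPM in endothelial cells of A and 871 of B. The same RNA was at 11.2 and 12.3 CPM in excitatory neurons and 9.44 and 9.79 in inhibitory neurons. Glia held 4.54 and 7.34 CPM. Endothelial cells were thus far above every neural class in both libraries, and the log2 fold change over excitatory neurons was 6.23 ± 0.19 (SE, edgeR adjusted p = 4.48e-26). COL4A2, its partner chain and its neighbour in the annotation, stood at 503 and 470 CPM in endothelial cells and at 11.4 and 9.79 in excitatory neurons, a log2 fold change of 5.36 ± 0.19 (edgeR adjusted p = 1.36e-23).

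COL4A1 was counted in 81.1% of the 106 wide-gate endothelial cells of A and 71.6% of the 299 of B. After every cell was thinned to 1500 UMIs these shares were 70.8% (95% exact interval 61.1 to 79.2) and 64.2% (58.5 to 69.6). In excitatory neurons, which have deeper cells (median 3338 and 2924.5 UMIs against 2353.5 and 2001), the thinned shares were 1.54% and 1.90%. Free RNA in the suspension can give UMIs in cells that do not express a gene, and its part in the neural levels was not tested. Relative to endothelial cells, excitatory neurons held 1.09% and 1.41% of the COL4A1 level and 2.27% and 2.08% of the COL4A2 level. Inhibitory neurons held 0.92% and 1.12% of the COL4A1 level but 2.73% and 4.79% of the COL4A2 level. Glia held 0.44% and 0.84% of the endothelial COL4A1 level and 0.19% and 0.36% of that of COL4A2.

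The 2 chains were often counted in the same vascular cell. Of the wide-gate endothelial cells with a COL4A2 UMI, 85.7% in A and 72.3% in B also held COL4A1, beside 81.1% and 71.6% of all such cells. In the wide mural group 22 of 43 cells of A and 15 of 25 of B held both COL4A1 and COL4A2. In excitatory neurons 10 of 3761 and 6 of 1688 cells held both.

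COL18A1, whose protein carries endostatin and lies in vascular basement membranes, stood at 326 and 338 CPM in endothelial cells, 16.2 and 14.1 in glia and 3.26 and 2.85 in excitatory neurons. Its log2 fold change in endothelial cells over excitatory neurons was 6.61 ± 0.22 (edgeR adjusted p = 4.18e-24). No COL18A1 UMI was found in the oligodendrocyte precursors. COL5A2, a chain of the type V collagen that sets fibril width, stood at 163 and 205 CPM in endothelial cells and 6.30 and 5.87 in excitatory neurons (log2 fold change 4.83 ± 0.24, edgeR adjusted p = 1.33e-18). COL5A2 was also widespread in the germinal classes, with 40.6 and 38.9 CPM in glia, 35.4 and 29.7 in EOMES-gated cells and 26.8 and 42.1 in EGFR-gated progenitors. COL5A2 sits beside COL3A1 in the annotation, and whether counting used the strand is not given in the sources used here.

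**Figure D2:**
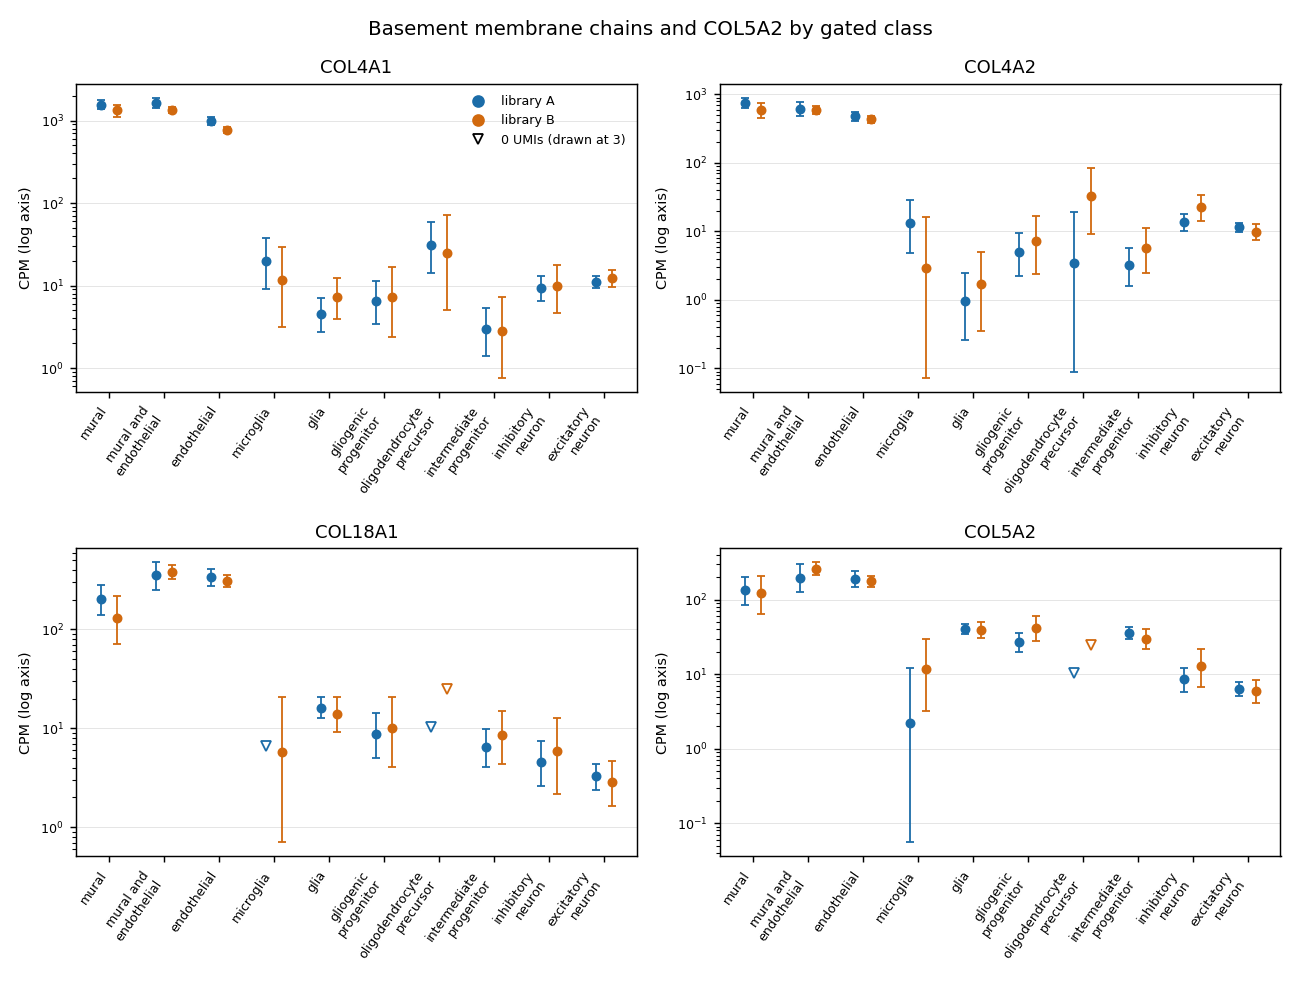
COL4A1, COL4A2, COL18A1 and COL5A2 as CPM (log axis, 1 panel per gene) in 10 classes, 1 point per library with its exact 95% Poisson interval; open triangles mark classes with 0 UMIs, drawn at the level 3 UMIs would give. COL4A1 and COL4A2 sit at 432 CPM or more in the vascular groups and at 33.1 or less in every other class, whereas COL5A2 holds 26.8 to 42.1 CPM in glia, the EGFR-gated progenitors (gliogenic) and the EOMES-gated cells (intermediate progenitor).

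Fibrillar chains were low but present in endothelial cells. COL1A1 stood at 19.7 and 33.8 CPM there and at 0.43 and 0 in excitatory neurons (log2 fold change 6.08 ± 0.86, edgeR adjusted p = 3.37e-07). COL1A2 stood at 19.7 and 58.5 CPM, against 0.22 and 1.42 (5.78 ± 0.70, adjusted p = 1.18e-08). COL4A5, a type IV chain known from kidney and epithelial basement membranes, stood at 4.93 and 13.5 CPM against 0.72 and 0.36 (3.94 ± 0.98, adjusted p = 0.00128). The endothelial class itself held RNA of mural markers, at a summed level of 395 CPM in A (11 of 12 markers, KCNJ8 at 0) and 473 in B (11 of 12, DES at 0), against 11.9 and 15 in excitatory neurons. The part of mural RNA in the endothelial COL1A1, COL1A2, COL4A1, COL4A2 and COL4A5 values was not tested. Red cell RNA (HBM) was found in 0 of the endothelial cells of A and 21 (11.1%) of B, and mitochondrial genes took 3.44% and 4.21% of their UMIs against 1.43% and 1.63% in excitatory neurons.

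COL11A1, a minor chain of cartilage-type fibrils, was called higher in endothelial cells (log2 fold change 1.94 ± 0.58, edgeR adjusted p = 0.00645), but its endothelial levels were 4.93 and 27 CPM against 5.36 and 5.16 in excitatory neurons. The libraries differed in direction, with a log2 difference of -0.20 within A and 2.15 within B. COL24A1 (14.8 and 9.0 CPM, against 57.3 and 49.3) and COL9A3 (9.87 and 20.3, against 39.1 and 43.1) were lower in endothelial cells of both libraries, by log2 fold changes of -2.35 ± 0.45 (edgeR adjusted p = 5.32e-05) and -1.41 ± 0.41 (0.00548).

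Chains of interstitial fibrils were higher in mural than in endothelial cells. The wide mural group was above the wide endothelial group in COL3A1, COL1A2, COL1A1, COL5A3 and COL4A5, and by a smaller step in COL4A1 and COL4A2. COL18A1 was lower in it. This comparison was chosen after the gates had been seen. Of 17 members tested 7 were higher and 1 lower, against 9.38% of all 10497 genes tested (3.95% higher, 5.43% lower), and their median log2 fold change was 2.13 beside -0.09 for all genes. The count filter passes a gene through any group in which it is high, and for COL5A3 and COL4A5 this includes the wide mural group. The number of higher members and the median are therefore partly set by the filter.

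COL3A1, the chain of the thin fibrils of vessel walls and a ligand of the receptor ADGRG1, stood at 342 and 318 CPM in the wide mural group. It was at 21.5 and 48.9 CPM in wide-gate endothelial cells and at 0.07 and 0.18 in excitatory neurons. The libraries' levels did not overlap between the mural and endothelial groups, and the log2 fold change was 3.02 ± 0.38 (edgeR adjusted p = 7.01e-08). COL1A2 stood at 348 and 177 CPM against 21.5 and 58.9 (2.49 ± 0.42, adjusted p = 2.39e-05). Its difference was 3.89 on the log2 scale within A and 1.47 within B, so both libraries gave the direction and not the size. COL1A1 stood at 165 and 149 CPM against 15.4 and 37.4 (2.38 ± 0.49, adjusted p = 0.000514), a call that was lost when cells were thinned to 1500 UMIs (adjusted p = 0.0755).

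COL5A3, a further type V chain, held 16 UMIs in the wide mural group (73.3 and 37.4 CPM) and 3 in the wide endothelial group (0 and 4.31 CPM), a ratio of 20.1 (exact interval 5.75 to 108, edgeR adjusted p = 0.00224). COL4A5 stood at 79.4 and 37.4 CPM against 3.08 and 12.9 (log2 fold change 2.54 ± 0.69, adjusted p = 0.0112). COL4A1 stood at 1563 and 1326 CPM against 985 and 779, a log2 fold change of 0.66 ± 0.11 (edgeR adjusted p = 6.24e-06). COL4A2 stood at 751 and 588 CPM against 477 and 432 (0.52 ± 0.16, adjusted p = 0.0244), but this call was lost under 5 of 8 alternatives, with adjusted p up to 0.491. COL18A1 was lower at 202 and 131 CPM against 338 and 312 (-0.98 ± 0.26, edgeR adjusted p = 0.00825), a call that 3 of 8 alternatives ended (adjusted p up to 0.213). Of the beaded filament chains, COL6A2 stood at 48.8 and 46.7 CPM against 9.23 and 7.18 and was not called (edgeR adjusted p = 0.0768), and COL6A1 stood at 61.1 and 18.7 against 6.15 and 14.4 and was not tested.

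The 21 and 6 cells that passed the mural gate alone were compared with endothelial cells without a test. COL3A1 stood there at 300 and 1068 CPM, COL1A1 at 180 and 415, COL1A2 at 421 and 534 and COL4A5 at 45.1 and 119. These 4 of 10 members with at least 10 UMIs were 2-fold or more above endothelial cells in both libraries, and 0 were as far below, where 5.81% of all 9020 genes counted were above and 0.432% below. The COL4A5 levels rest on 3 and 2 UMIs. The OGN and DCN gated cells, set against mural cells in the same way, were 2-fold or more below them in 6 of 9 members (COL18A1, COL1A1, COL1A2, COL3A1, COL4A1 and COL4A2), and above them in 0, against 6.21% and 0.637% of 8950 genes. COL3A1 held 0 UMIs in them, and COL1A1 and COL1A2 0 and 5.53 CPM each.

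RNA of COL1A1, COL1A2 and COL3A1 met in few cells. Over both libraries 59 cells held at least 2 of the 3 (25 in A, 34 in B). Of these 53 passed the mural or the endothelial gate, 39 the mural gate and 17 both. In the wide mural group 10 of 11 cells with COL1A1 in A and 6 of 7 in B also held COL1A2. COL3A1 was found in 32.6% and 40.0% of the wide mural cells, in 6.60% and 9.70% of wide-gate endothelial cells and in 1 of 3761 and 1 of 1688 excitatory neurons. The fibroblast gate markers summed to 427 and 327 CPM in the wide mural group (DCN, OSR1, TWIST2 and MFAP4 at 0 in both libraries) and to 157 and 243 in wide-gate endothelial cells. The part of fibroblast RNA in the mural fibrillar values was not tested. The wide mural group also held endothelial gate markers, at a summed level of 421 CPM in A and 626 in B. In A TIE1 was at 0, and in B KDR and CD34 were. Wide-gate endothelial cells held 5936 and 5385 CPM of these markers. How much endothelial RNA adds to the mural COL4A1, COL4A2 and COL18A1 values was not tested.

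**Figure D3:**
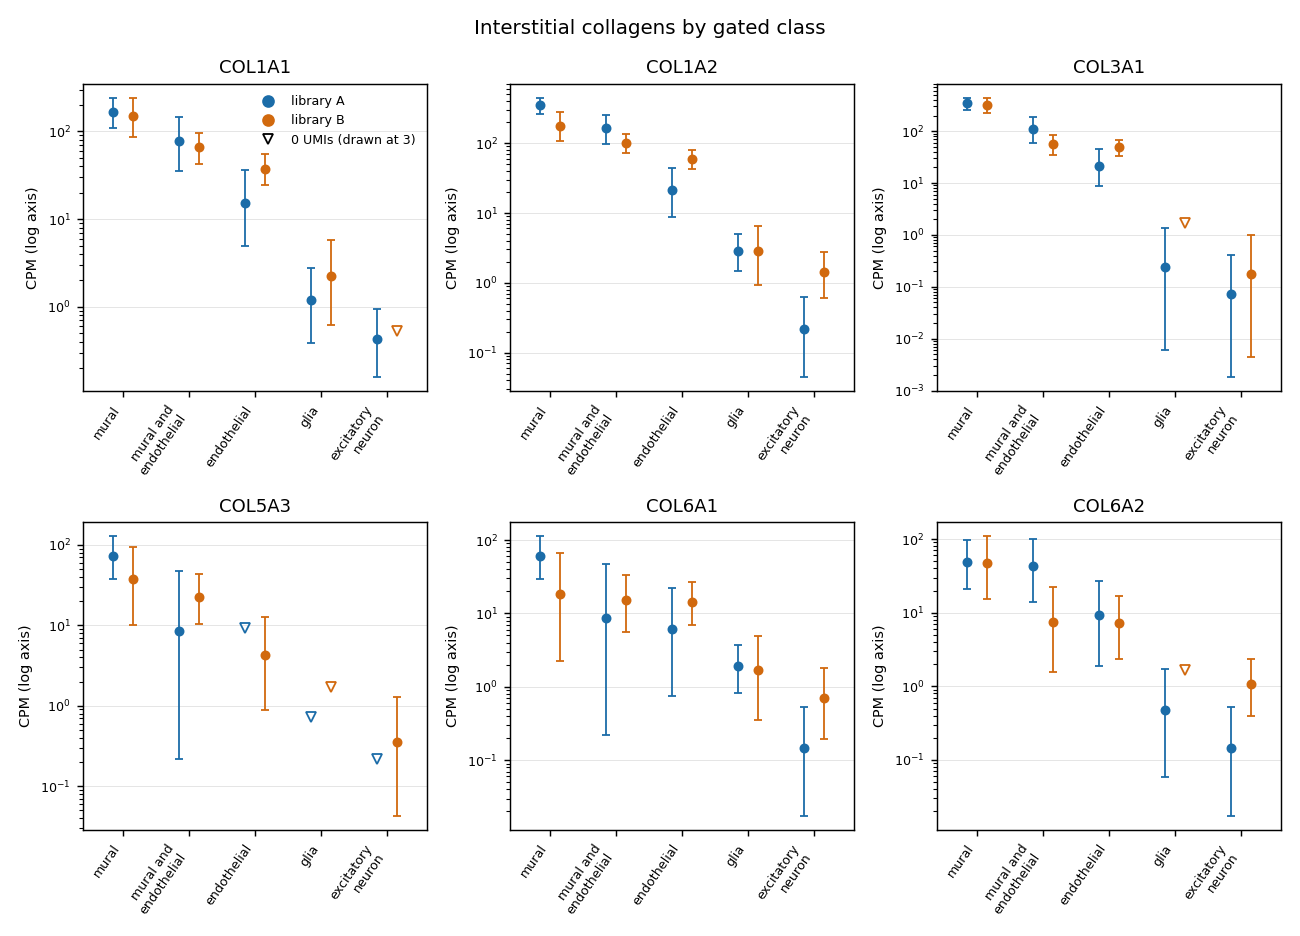
COL1A1, COL1A2, COL3A1, COL5A3, COL6A1 and COL6A2 as CPM (log axis) in the wide mural, mural and endothelial, and wide endothelial groups, glia and excitatory neurons, 1 point per library with its exact 95% Poisson interval; open triangles mark 0 UMIs, drawn at the level of 3 UMIs. COL3A1 is at 342 and 318 CPM in mural cells, 21.5 and 48.9 in endothelial cells and below 1 CPM in glia and neurons.

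Cells with both vascular marker sets differed from wide-gate endothelial cells in 1 of 17 members, where 0.581% of all genes tested were called (0.372% higher, 0.21% lower). This was COL4A1, at 1648 and 1352 CPM against 985 and 779 (log2 fold change 0.78 ± 0.09, edgeR adjusted p = 8.42e-08). Their fibrillar levels lay between those of the mural and endothelial groups, with COL3A1 at 112 and 55.5 CPM and COL1A2 at 163 and 101.

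Glia were set against excitatory neurons to find the collagens of the germinal cells. The fibril-associated COL16A1, COL9A1 and COL9A3 and the fibrillar COL11A1 and COL5A2 were higher in glia, together with COL4A5, COL18A1, COL4A4 and COL1A2. COL24A1, COL12A1, COL4A2 and COL4A1 were lower. Of 15 members tested 9 were higher and 4 lower, against 66.0% of all genes (32.9% higher, 33.1% lower). The members' median log2 fold change was 2.01, beside -0.04 for all genes. Here too the counts and the median are partly set by the count filter.

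COL9A3, a chain of the type IX collagen known from cartilage, stood at 107 and 128 CPM in glia and 39.1 and 43.1 in excitatory neurons (log2 fold change 1.38 ± 0.13, edgeR adjusted p = 4.14e-12). It was counted in 42.7% and 42.9% of glia and, thinned to 1500 UMIs, in 15.1% and 14.3%, against 5.96% and 6.99% of excitatory neurons. COL11A1 stood at 53.0 and 38.9 CPM in glia against 5.36 and 5.16 (3.05 ± 0.21, edgeR adjusted p = 6.89e-16). COL5A2 stood at 40.6 and 38.9 CPM against 6.30 and 5.87 (2.56 ± 0.19, 2.62e-14). All 3 kept the 2 classes apart in both libraries.

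COL16A1, a fibril-associated chain, stood at 17.9 and 22 CPM in glia and 1.52 and 2.31 in excitatory neurons (3.27 ± 0.35, edgeR adjusted p = 1.34e-10). It was not confined to glia: oligodendrocyte precursors held 20 CPM or more in both libraries and were not called different from glia. COL4A5 stood at 12.9 and 11.3 CPM against 0.72 and 0.36 (4.09 ± 0.48, 2.54e-09). COL18A1 was higher by 2.17 ± 0.26 on the log2 scale (2.68e-09) and COL9A1, another type IX chain, by 2.92 ± 0.52 (7.88 and 6.21 CPM against 0.65 and 1.25, edgeR adjusted p = 5.52e-06). COL4A4 was higher at 4.77 and 3.95 CPM against 1.59 and 0.89 (1.56 ± 0.47, edgeR adjusted p = 0.00361), a call lost with 1 more gate marker or with thinning (adjusted p up to 0.349). COL1A2 reached only 2.86 and 2.82 CPM in glia (2.07 ± 0.74, adjusted p = 0.0135), and DESeq2 did not call it (adjusted p = 0.0577).

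Among the lower members, COL24A1 stood at 2.86 and 2.26 CPM in glia and 57.3 and 49.3 in excitatory neurons (log2 fold change -4.45 ± 0.26, edgeR adjusted p = 2.12e-17). COL12A1 held 0 UMIs in glia and 71 in excitatory neurons, at least 7.26-fold lower by a floor of 3 UMIs over both libraries (edgeR adjusted p = 1.20e-05). COL4A2 was lower by a log2 fold change of -3.27 ± 0.44 (3.01e-08) and COL4A1 by -1.21 ± 0.33 (0.00178, 0.107 with DESeq2). Both were at 12.3 CPM or less in either class. Endothelial gate markers summed to 15.8 and 23.7 CPM in glia (CDH5, ESAM and TIE1 at 0 in A, PECAM1 and TIE1 in B) and to 40.8 and 54.1 in excitatory neurons (EMCN at 0 in A). The part of endothelial RNA in the COL4A1 and COL4A2 difference was not tested.

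Glia with at least 2 of 5 mitotic genes (103 and 47 cells) and glia with none (519 and 246) had like collagen totals, at 298 and 315 against 317 and 326 CPM. Levels of single members are given without a test, and some rest on very few UMIs. COL4A4 stood at 13.5 and 13.7 CPM in dividing and 2.55 and 1.73 in non-dividing glia. COL27A1, a fibrillar chain of cartilage, stood at 3.68 and 3.42 CPM in dividing and 12 and 10.4 in non-dividing glia. In dividing glia 3 UMIs equal 3.68 CPM in A and 10.3 in B, so COL27A1 was at or below that level there. The 3.42 CPM of B is 1 UMI. In non-dividing glia 3 UMIs equal 1.09 and 2.59 CPM, and COL4A4 was below that in B. Of the 123 COL27A1 UMIs 45.5% were in glia, and it was at 0.22 and 0.36 CPM in excitatory neurons, but too few UMIs kept it out of the genes tested.

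Oligodendrocyte precursors had the highest COL11A1 of the gated classes and were set against glia. COL11A1, COL9A2, COL9A1, COL12A1, COL4A4, COL4A1 and COL4A2 were higher in the precursors, and COL9A3, COL5A2, COL18A1 and COL4A5 were lower. This was 7 higher and 4 lower of 15 members tested, against 20.3% of all genes (8.97% higher, 11.3% lower). The count filter passes a gene through any class in which it is high. Among the classes of this fit COL9A2, COL12A1 and COL4A4 reached 20 CPM in both libraries only in the precursors. The number of higher members is therefore partly set by the filter. The median log2 fold change of the 15 was 0.62, beside -0.07 for all genes. For 7 of the 15 a class held 0 UMIs, so the size of their fold changes was not measured. The precursor sums rest on 76 cells in all, fewer than any other class of the same fit.

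COL11A1 stood at 343 and 273 CPM in the precursors, 53.0 and 38.9 in glia and 86.0 and 53.7 in EGFR-gated progenitors. Its log2 fold change over glia was 2.61 ± 0.22 (edgeR adjusted p = 4.82e-12), and the libraries gave 2.57 and 2.63. It was counted in 70.4% and 86.4% of the precursors and in 24.7% and 16.2% of glia, or, thinned to 1500 UMIs, in 35.2% and 31.8% against 7.0% and 6.44%. Excitatory neurons held it in 0.665% and 0.474% of thinned cells.

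COL9A2, the third chain of type IX collagen, held 21 UMIs in the precursors (58.9 and 33.1 CPM) and 4 in glia (0.72 and 0.56 CPM), a log2 fold change of 6.0 ± 0.80 (edgeR adjusted p = 2.20e-07). COL9A1 was also higher in the precursors, at 17.3 and 74.4 CPM against 7.88 and 6.21 (2.13 ± 0.65, adjusted p = 0.0145). COL9A3 was lower, at 48.5 and 33.1 CPM against 107 and 128 (-1.49 ± 0.33, adjusted p = 0.000623). The 3 chains of 1 trimer thus moved in different directions between the 2 classes.

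COL12A1, a fibril-associated chain of tendon and skin, held 10 UMIs in the precursors (24.3 and 24.8 CPM) and 0 in glia, at least 48.5-fold higher (edgeR adjusted p = 3.77e-06). COL4A4, a type IV chain of the kidney network, stood at 27.7 and 24.8 CPM against 4.77 and 3.95 (2.44 ± 0.66, edgeR adjusted p = 0.00545). Its partner COL4A3 held 6.93 and 8.26 CPM in the precursors and 5.01 and 4.51 in glia and was not tested. COL4A1 rested on 12 UMIs in the precursors (2.31 ± 0.71, adjusted p = 0.0166, 0.634 thinned) and COL4A2 on 5 UMIs (3.20 ± 1.07, adjusted p = 0.0278). The COL4A2 call was lost where cells of several gates went to the first they passed (0.131) and changed sign when thinned. Endothelial gate markers summed to 86.7 and 124 CPM in the precursors (2 of 11 and 4 of 11 markers, with PECAM1, CDH5, ESAM, TIE1, KDR and ERG at 0 in both libraries), and their part in the COL4A1 and COL4A2 values was not tested.

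COL5A2, COL18A1 and COL4A5 had no UMI in the precursors. COL5A2 held 0 UMIs there and 239 in glia, at least 5.47-fold lower (edgeR adjusted p = 5.88e-05). COL18A1 held 0 and 93, at least 2.13-fold lower (0.00779, 0.302 thinned). COL4A5 held 0 and 74, at least 1.69-fold lower (0.0495, lost under 4 of 8 alternatives with adjusted p up to 0.0703). In the precursor sums a count of 0 allows a level of up to 10.4 CPM in A and 24.8 in B, the value of 3 UMIs.

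**Figure D4:**
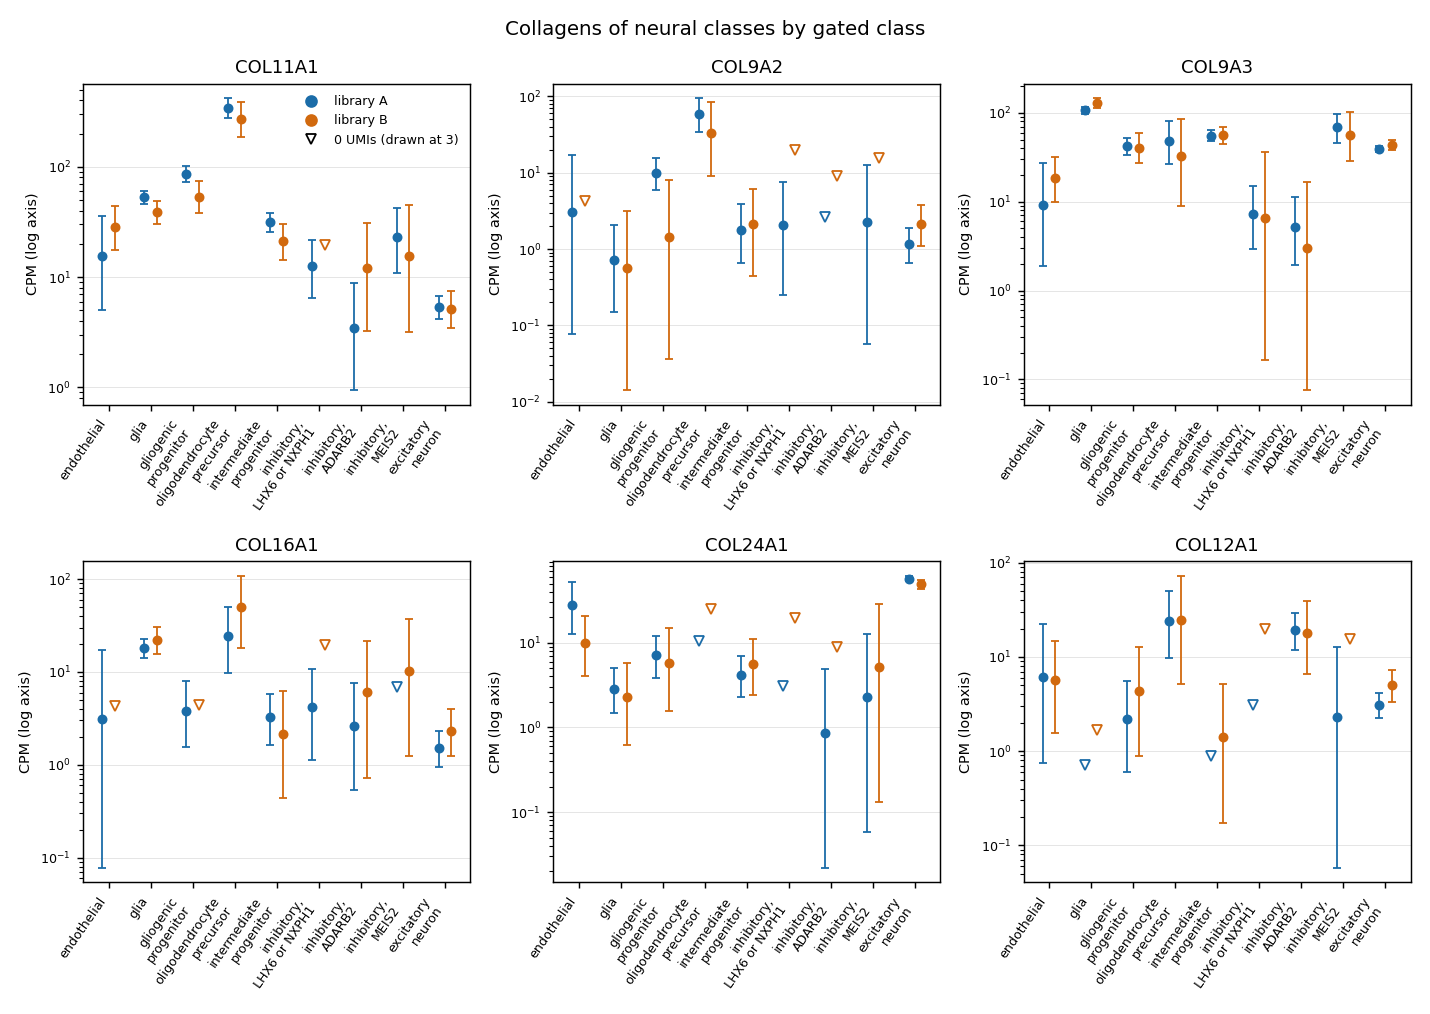
COL11A1, COL9A2, COL9A3, COL16A1, COL24A1 and COL12A1 as CPM (log axis) in endothelial cells and 8 neural classes, 1 point per library with its exact 95% Poisson interval; open triangles mark 0 UMIs, drawn at the level of 3 UMIs, and the gliogenic and intermediate progenitors are the EGFR-gated and EOMES-gated cells. COL11A1 peaks in oligodendrocyte precursors at 343 and 273 CPM, COL9A3 in glia at 107 and 128, and COL24A1 in excitatory neurons at 57.3 and 49.3.

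Inhibitory and excitatory neurons differed in 4 of 15 members tested, a share close to that of all genes. COL24A1 and COL9A3 were lower and COL11A1 and COL12A1 higher in inhibitory neurons, against 29.2% of all genes (14.7% lower, 14.5% higher). The members' median log2 fold change was 0.42, beside -0.01 for all genes, and the count filter partly sets it.

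COL24A1, a fibrillar chain known from bone and cornea, was found mainly in excitatory neurons. It stood at 57.3 and 49.3 CPM in excitatory neurons and 2.29 and 0.98 in inhibitory neurons, a log2 fold change of -4.86 ± 0.31 (edgeR adjusted p = 7.31e-16). Of its 1300 UMIs 82.2% were in excitatory neurons, where 244 cells of A and 106 of B held it and 1 cell held up to 18 UMIs. The share of excitatory neurons with COL24A1 was 6.49% (95% exact interval 5.72 to 7.32) and 6.28% (5.17 to 7.54). Thinned to 1500 UMIs the shares were 3.56% and 2.84%, against 0.466% and 0.305% of inhibitory neurons and 0.823% and 0 of glia. Excitatory neurons with at least 2 of 5 deep-layer genes (109 and 53 cells) held 69.0 and 98.2 CPM and those with none 58.9 and 56.9, given without a test.

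COL19A1, a fibril-associated chain, followed the same class at a lower level, with 7.02 and 4.09 CPM in excitatory and 1.14 and 1.96 in inhibitory neurons. Of its 174 UMIs 69.0% were in excitatory neurons, but it was not among the genes tested. COL9A3 was lower in inhibitory neurons at 17.7 and 34.3 CPM against 39.1 and 43.1 (log2 fold change -0.96 ± 0.19, edgeR adjusted p = 6.46e-05). Within the inhibitory class its levels were uneven, given without a test: cells with MEIS2 held 68.6 and 56.8 CPM, cells with ADARB2 5.22 and 3.0, and cells with LHX6 or NXPH1 7.29 and 6.57. In B 3 UMIs equal 9.01 CPM in the ADARB2 cells and 19.7 in the LHX6 or NXPH1 cells, so both B values are below that level. The MEIS2 cells kept only 2 of 4 further inhibitory markers. COL11A1 was higher in inhibitory neurons at 13.2 and 22.5 CPM against 5.36 and 5.16 (1.42 ± 0.29, edgeR adjusted p = 0.000138).

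COL12A1 differed between the interneuron groups. It held 28 UMIs in cells with ADARB2 (19.2 and 18 CPM), a marker of interneurons from the caudal ganglionic eminence, and 0 in cells with LHX6 or NXPH1, markers of those from the medial eminence. The difference was at least 7.01-fold (edgeR adjusted p = 0.00061), and 1 of 17 members was called, where 10.5% of all genes were (5.72% higher, 4.8% lower). This contrast was chosen after the levels had been seen. Of 296 and 56 cells with LHX6 or NXPH1, 0 held COL12A1, against 4.57% and 3.79% of the ADARB2 cells. By the limit of 3 counts, 0 allows up to 1.01% of cells with a UMI in A and 5.36% in B, so the shares are not told apart in B. COL12A1 had too few UMIs to be tested with 1 more gate marker or after thinning. Over the whole inhibitory class COL12A1 was higher than in excitatory neurons (7.72 and 11.7 CPM against 3.11 and 4.98, 1.16 ± 0.40, edgeR adjusted p = 0.0231), a call that 2 changes of the gates ended (adjusted p up to 0.232).

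EGFR-gated progenitors, which carry OLIG1 or OLIG2 without SOX10, were set against glia. COL9A2, COL12A1, COL4A2 and COL11A1 were higher and COL16A1 and COL9A3 lower. These were 4 and 2 of 15 members, against 35.1% of all genes (16.4% higher, 18.7% lower), in a comparison chosen after the data had been seen. COL16A1 stood at 3.83 and 0 CPM against 17.9 and 22 (log2 fold change -2.82 ± 0.52, edgeR adjusted p = 3.89e-05). COL9A3 stood at 42.2 and 40.6 CPM against 107 and 128 (-1.50 ± 0.18, 9.65e-09). COL9A2 was higher on 19 UMIs against 4 (3.27 ± 0.82, 0.00171), at 9.86 CPM in A and 1.45 in B. Of these 19 UMIs 18 were in A, and the log2 difference was 2.65 within A and 0.64 within B. COL11A1 was higher by 0.58 ± 0.19 (0.0142), a call lost with DESeq2 and with thinning (adjusted p up to 0.281). COL12A1 held 7 UMIs against 0, at least 5.53-fold higher (0.00387), and 3 of 8 alternatives ended that call. COL4A2 was higher by 2.13 ± 0.71 (0.0171, 0.0561 thinned).

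EOMES and NEUROG2 are genes of neuronal progenitors, and the cells gated by them were set against excitatory neurons. COL4A4, COL5A2, COL11A1 and COL18A1 were higher and COL24A1, COL12A1, COL4A1 and COL4A2 lower. These were 4 and 4 of 15 members, against 45.0% of all genes (21.2% higher, 23.9% lower), again in a comparison chosen after the data had been seen. COL5A2 stood at 35.4 and 29.7 CPM against 6.30 and 5.87 (log2 fold change 2.29 ± 0.21, edgeR adjusted p = 1.33e-11) and COL11A1 at 31.3 and 21.2 against 5.36 and 5.16 (2.25 ± 0.24, 4.70e-10). COL4A4 stood at 9.15 and 8.48 CPM against 1.59 and 0.89 (2.53 ± 0.42, 4.83e-06). COL24A1 stood at 4.13 and 5.65 CPM against 57.3 and 49.3 (-3.69 ± 0.25, 4.21e-15). COL4A1 (-2.10 ± 0.42, 8.13e-05) and COL4A2 (-1.57 ± 0.35, 0.000322) were at 6 CPM or less in these cells. COL12A1 held 2 UMIs against 71, a ratio of 0.114 (exact interval 0.014 to 0.427, edgeR adjusted p = 0.00136, 0.0945 thinned). COL18A1 was higher by 1.03 ± 0.34 (0.0119, 0.658 thinned). COL14A1, a fibril-associated chain, held 4.72 and 4.24 CPM in EOMES-gated cells and 0.87 and 0.53 in excitatory neurons and was not tested.

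In all, 17 of the 43 members were called in at least 1 comparison, where the 2 fits tested 15 and 17 members. The share of all genes called in at least 1 comparison was not computed. Single comparisons called up to 66.0% of all genes, so the 17 do not set collagens apart. There were 11 members at 20 CPM or more in both libraries of a gated class with at least 10 cells in each library. This leaves out the mural and ependymal gates. The members in neither fit held 5 to 292 UMIs each. COL2A1, COL6A3, COL6A5, COL13A1, COL4A6 and COL28A1 held 5 to 27 UMIs each in the kept cells. The 24 UMIs of COL28A1 came from 10 cells, 1 of which held 11. COL23A1 held 46 UMIs, 67.4% of them in cells that passed no gate. COL4A3 (292 UMIs), COL8A2 (189), COL7A1 (110), COL14A1 (109), COL5A1 (88), COL21A1 (74), COL26A1 (69), COL22A1 (65), COL25A1 (64), COL11A2 (58), COL10A1 (53), COL8A1 (41), COL6A6 (36), COL17A1 (31) and COL15A1 (30) were not tested. COL15A1, the other endostatin-bearing chain, was at 9.87 and 4.5 CPM in endothelial cells and at 0 in glia. COL8A2, a short chain of network-forming collagen, was at 0 in all vascular groups and at 3.69 and 1.96 CPM in excitatory neurons. The members that passed the count filter did so partly through the class in which they are high, so counts over them do not describe the sparse members. For the same reason the counts and medians of members in each comparison are partly set by the filter.

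Genes that make and fold collagen were compared in the same fits. Of 18 synthesis and folding genes tested, 13 were higher and 0 lower in endothelial cells than in excitatory neurons (median log2 fold change 1.72), against 21.4% and 18.6% of all genes. In glia 14 were higher and 1 lower (1.31), against 32.9% and 33.1% of all genes. SERPINH1, the collagen chaperone, stood at 242 and 180 CPM in endothelial cells, 84.7 and 69.4 in glia and 1.74 and 3.20 in excitatory neurons (log2 fold changes 6.41 ± 0.31 and 5.01 ± 0.23, edgeR adjusted p = 1.23e-19 and 5.17e-21). PLOD2, a lysyl hydroxylase of collagen, was higher by 4.98 ± 0.59 and 4.77 ± 0.30. In the oligodendrocyte precursors SERPINH1 held 2 UMIs in A and 0 in B, against 355 and 123 in glia (edgeR adjusted p = 1.55e-05), although their collagen total was above that of glia. Of the 18 genes 1 was lower in them, SERPINH1, and 1 was higher, COLGALT2 (a collagen galactosyltransferase, 2.76 ± 0.73, edgeR adjusted p = 0.00456), against 11.3% and 8.97% of all genes. The COLGALT2 call was lost when thinned (edgeR adjusted p = 0.527).

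Basement membrane partners were higher in endothelial cells in 10 of 11 genes tested (0 lower, median log2 fold change 5.01), against 21.4% of all genes higher, led by the laminin chain LAMA4 (607 and 603 CPM against 2.03 and 4.09), SPARC, NID2 and NID1. In glia 7 of 11 were higher and 0 lower, against 32.9% and 33.1% of all genes, led by the laminin chain LAMA1 (124 and 101 CPM against 1.96 and 1.96, 5.72 ± 0.20). LAMA1 was lower in the oligodendrocyte precursors than in glia (-2.36 ± 0.39) and so was SPARC (-3.82 ± 0.37), among 4 lower and 1 higher of 11, against 11.3% and 8.97% of all genes. In the wide mural group 5 of 12 partners were higher than in wide-gate endothelial cells and 0 lower, against 3.95% and 5.43% of all genes, LAMC3 by 2.91 ± 0.63 and NID1 by 1.84 ± 0.31.

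Among processing and cross-linking genes, LOXL1, a lysyl oxidase-like enzyme, was higher than in excitatory neurons in endothelial cells (3.33 ± 0.80) and glia (4.31 ± 0.34), and higher in the wide mural than the wide endothelial group (2.99 ± 0.60). These lists had 3 higher and 1 lower, 3 higher and 2 lower, and 3 higher and 0 lower of 6, 6 and 5 genes tested, where 40.0%, 66.0% and 9.38% of all genes were called. ADAMTS3, a procollagen protease, was lower in endothelial cells (-1.72 ± 0.63) and glia (-2.08 ± 0.27) than in excitatory neurons. In oligodendrocyte precursors against glia 0 of 6 were called.

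Collagen receptors were higher in 3 and lower in 1 of 6 in endothelial cells and higher in 5 and lower in 0 of 6 in glia, against excitatory neurons. The shares of all genes were 21.4% higher and 18.6% lower in endothelial cells and 32.9% and 33.1% in glia. ITGA1, a collagen-binding integrin chain, stood at 252 and 223 CPM in endothelial cells against 3.33 and 6.76. ADGRG1, a receptor for COL3A1, stood at 157 and 111 CPM in glia against 22.8 and 20.3 in excitatory neurons (2.56 ± 0.11, edgeR adjusted p = 1.15e-21), while COL3A1 itself held 1 UMI in glia. In oligodendrocyte precursors 0 receptors were higher and 3 of 6 lower than in glia, among them ITGB1 (-1.53 ± 0.21), where 8.97% and 11.3% of all genes were higher and lower.

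The degradation list holds proteases together with their inhibitors, the TIMPs. Of 9 tested 5 were higher and 2 lower in oligodendrocyte precursors than in glia, against 8.97% and 11.3% of all genes, with a median log2 fold change of 2.53. The higher genes include 2 inhibitors at few UMIs: TIMP4 held 7 and 3 UMIs in the precursors and 2 and 1 in glia (edgeR adjusted p = 0.00032), and TIMP1 held 1 and 7 against 1 and 2 (0.00208). MMP16, a membrane-bound metalloproteinase, stood at 752 and 744 CPM in the precursors and 32.0 and 27.7 in glia (4.5 ± 0.15, edgeR adjusted p = 9.38e-24). MMP2, a gelatinase that cleaves type IV collagen, stood at 55.5 and 57.9 CPM against 2.86 and 3.95 (3.99 ± 0.53, 2.18e-07). EGFR-gated progenitors held 186 and 157 CPM of MMP16, above glia by 2.46 ± 0.14 on the log2 scale. MMP2 was also higher in inhibitory than excitatory neurons (17.2 and 17.6 CPM against 0.72 and 1.25, 4.10 ± 0.39) and in the wide mural over the wide endothelial group (2.78 ± 0.63). Against excitatory neurons, degradation genes were higher in 2 and lower in 2 of 9 in endothelial cells and higher in 4 and lower in 2 of 9 in glia, where 40.0% and 66.0% of all genes were called.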

How the data were processed

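Single-cell RNA was measured in 2 replicate libraries. The deposited matrix holds raw UMI counts. Per the submitters' processing notes they were made with Cell Ranger. The sources used here give no version, genome build or doublet removal, and no coordinates or sequences are printed.

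Of 14787 cells 14 were removed, for fewer than 500 genes or more than 10% mitochondrial UMIs. No doublet caller was run. Marker gates, without any collagen gene, gave the classes. Members, gates, lists and comparisons were chosen with earlier results of these data known. Counts were summed per class and library and tested in R 4.3.3 with edgeR 4.0.16 (quasi-likelihood, TMM, filterByExpr, library as a block, Benjamini-Hochberg over all genes), in a fit of 18 sums of 9 classes with 10 or more cells per library, and in a second fit with the wide vascular groups. The 83 gate genes were not tested. The scripts were tested on simulated data. DESeq2 1.42.0, thinning to 1500 UMIs, other gates, scalings, filters and each library alone were alternatives. Described in full were members at 20 CPM or more in both libraries of a class with 10 or more cells in each, or called. From each pathway list the up to 4 largest called changes with 1 direction in both libraries could be named. Intervals are exact 95% intervals for counting error only. The planned tests of the mural gate were replaced by fold counts because library B held 6 such cells. The shared library is the only pairing, and it links classes from the same suspension.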

Additional observations from a re-analysis of the deposited data

Results flagged for a closer look

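Collagen UMIs were also found in the cells that the comparisons did not use. Cells that passed no gate (2447 in library A, 1322 in library B) held 206 and 231 CPM of the 43 collagen genes, above the 165 and 165 CPM of excitatory neurons. In these cells COL9A3 stood at 66.6 and 65.6 CPM, COL11A1 at 34.5 and 33.9 and COL5A2 at 26.4 and 26.2. Cells that passed several gates (528 and 537) held 566 and 946 CPM. They include the cells with both mural and endothelial markers, and COL4A1 stood in them at 150 and 328 CPM. What these cells are was not tested.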

How the results depend on the processing

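Of 62 calls of single members, 46 kept their direction and their side of the threshold in every alternative that gave an adjusted p, and 16 did not; single libraries give no adjusted p, and there COL11A1 in endothelial cells changed sign. Thinning to 1500 UMIs, which left 10 and 11 members to test in place of 15 and 17, gave 6 called members for endothelial cells against excitatory neurons (10 in the main analysis), 8 for glia against excitatory neurons (13), 6 for oligodendrocyte precursors against glia (11), 3 for EGFR-gated progenitors against glia (6), 5 for EOMES-gated cells against excitatory neurons (8) and 4 for the wide mural against the wide endothelial group (8). Over all genes it gave 1242 (2433) for the precursors, 2180 (4212) for the EGFR-gated progenitors, 3098 (5405) for the EOMES-gated cells, 269 (985) for the mural group and 12 (61) for cells with both vascular marker sets against endothelial cells. For that last comparison the count was also 24 without the replicate block, 28 with 1 more gate marker and 96 without the low-count filter, with 2 members called (1) under the last. Giving cells of several gates to the first they passed raised the endothelial count from 10 to 16, with 21 members tested. For ADARB2 against LHX6 or NXPH1 cells edgeR called 0 of 14 members with 1 more gate marker and 0 of 11 when thinned (0 at unadjusted p under 0.05 in both, 1 called by DESeq2 on the full sums). With 1 more gate marker 8 of 15 members, in place of 4 of 10, were 2-fold higher in mural than endothelial cells. Over all genes these were 529 of 10076, in place of 524 of 9020. There the mural gate held 22 and 13 cells, and edgeR called 8 of 21 members. With cells given to the first gate they passed it called 1 of 21, and 5 of 19 members and 198 of 11419 genes were 2-fold higher. The edgeR calls over all genes were not counted for these 2 settings, so the 8 and the 1 have no share beside them.

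COL11A1 in endothelial cells against excitatory neurons was at -0.20 in library A alone, and COL4A2 in the precursors against glia at -3.14 when thinned (adjusted p = 0.835); the cause was not tested. With a single library the mural count was 5 to 6 and the count of OGN and DCN gated cells against mural cells 6 to 7; member counts from 1 library have no test. Without the replicate block the counts of called members were 10, 14, 11, 4, 7, 8, 7, 1 and 1, against 10, 13, 11, 4, 6, 8, 8, 1 and 1 with it, in the order of endothelial, glia, precursor, inhibitory, EGFR-gated, EOMES-gated, mural, both-marker and ADARB2 comparisons. Scaling moved the median of all genes by up to 0.14 on the log2 scale. The share of calls that were higher went from 53.4% to 65.3% with DESeq2 for endothelial cells, from 44.3% to 55.2% for the precursors and from 42.1% to 58.0% for the mural group, and without TMM from 49.7% to 64.5% for inhibitory neurons and from 47.0% to 61.1% for EOMES-gated cells. Small sums set the limit: 3 UMIs equal 10.4 and 24.8 CPM in the precursors.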
